A study of Mus musculus with 9 samples.

Results

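Binding of the glucocorticoid receptor (GR) before the ovulatory signal is described here at 7733 loci, ordered from the strongest to the weakest. GR peaks had been called by the authors in 2 ChIP-seq libraries of mouse granulosa cells. Peaks of the 2 lists on chromosomes 1 to 19 and X were merged where they overlapped by 1 bp or more, which gave 11756 loci, and the 7733 loci (65.8%) called in both lists were kept. The strength of a locus is the mean of its ranks in the 2 lists by the fold enrichment the authors deposited, and its place runs from 1 (strongest) to 7733. The loci were then cut into 10 deciles by strength, of 773 or 774 loci each.

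The series asks how GR acts in granulosa cells around the surge of luteinising hormone (LH). The GR libraries used here are replicates 1 and 2 of wild-type CBA x C57BL/6 F1 mice, aged 21 days, that received 5 IU of equine chorionic gonadotropin (eCG) and were killed 44 h later without human chorionic gonadotropin (hCG), the stand-in for LH. Another list, from 1 library of wild-type cells of the same strain, age and treatment (antibody from Active Motif), gives 37453 peaks of histone H3 acetylated at lysine 27 (H3K27ac). The GR antibody was sc-8992 (Santa Cruz Biotechnology), the cells were set free by puncturing ovaries, and the other 6 of the 9 samples were not analysed here. The labels do not say whether the replicates are separate mice or pools, and all 3 libraries come from immature mice given gonadotropin. There was 1 condition, so no test between groups was possible, and loci are not replicates. Intervals of shares are 95% Wilson intervals and cover counting error only. Correlations are Spearman rank correlations over loci, given as descriptions with no p.

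GR is a nuclear receptor that is held by chaperones in the cytoplasm, enters the nucleus when it binds cortisol or corticosterone, and binds DNA as a dimer or through other factors. Its classical element is a pair of hexamers that read AGAACA or the reverse complement. Granulosa cells surround the oocyte, respond to follicle-stimulating hormone (FSH), which eCG mimics, and make estradiol. H3K27ac marks active promoters and enhancers, and wide stretches of it are typical of genes that define a cell type.

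Promoter sequences of strong and weak loci are printed first, because most loci lay at gene starts and the letters found there differed along the order. The sequences are RefSeq promoter windows of GRCm38.p6, whose coordinates are those of mm10, from 250 bases before to 50 after a gene start, on the gene's own strand. Capitals mark matches on either strand to the GR hexamer AGAACA, the AP-1 site TGANTCA, the NR5A site AAGGTCA, the E-box CACGTG, the cAMP response element (CRE) core TGACG, the CCAAT box, the TATA box TATAAA and the 8-letter word CCATAGAG described below. GC boxes (CCGCCC) and RUNX sites (TGTGGT) were searched too and are left in lower case. The first 3 windows lie under loci of place 1, 7 and 11 and the last lies under a locus of place 7728.
Kmt2a (chr9:44881240-44881539, minus strand): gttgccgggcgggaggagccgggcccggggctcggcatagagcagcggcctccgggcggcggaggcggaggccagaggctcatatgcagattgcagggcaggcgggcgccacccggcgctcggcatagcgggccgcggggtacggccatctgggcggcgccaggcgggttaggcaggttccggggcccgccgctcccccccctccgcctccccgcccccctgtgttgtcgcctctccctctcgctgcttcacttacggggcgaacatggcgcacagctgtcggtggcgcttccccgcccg
Ylpm1 (chr12:84996071-84996370, plus strand): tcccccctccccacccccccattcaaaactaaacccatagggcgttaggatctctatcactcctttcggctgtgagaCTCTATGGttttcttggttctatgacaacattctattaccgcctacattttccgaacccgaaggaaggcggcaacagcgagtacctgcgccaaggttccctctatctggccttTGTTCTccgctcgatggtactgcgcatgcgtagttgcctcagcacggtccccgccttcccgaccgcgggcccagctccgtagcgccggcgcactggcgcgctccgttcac
Sphk2 (chr7:45717953-45718252, minus strand): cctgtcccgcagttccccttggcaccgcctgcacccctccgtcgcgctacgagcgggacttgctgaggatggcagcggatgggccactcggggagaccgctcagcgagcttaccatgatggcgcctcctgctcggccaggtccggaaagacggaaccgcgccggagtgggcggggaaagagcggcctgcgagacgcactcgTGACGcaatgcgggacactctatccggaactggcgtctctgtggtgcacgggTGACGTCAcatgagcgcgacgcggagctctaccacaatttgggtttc
Chst12 (chr5:140505359-140505658, plus strand): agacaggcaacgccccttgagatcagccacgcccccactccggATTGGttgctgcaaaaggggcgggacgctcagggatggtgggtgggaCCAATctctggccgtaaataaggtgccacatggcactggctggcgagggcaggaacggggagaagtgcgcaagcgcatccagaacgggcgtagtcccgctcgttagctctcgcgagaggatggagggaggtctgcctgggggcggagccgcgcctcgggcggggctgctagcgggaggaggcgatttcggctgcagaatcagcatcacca

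None of the marked letters is in the Kmt2a window, whose GC content is 75.7%. It holds GC boxes and, at −215 from the gene start, the last 7 letters of the 8-letter word. The Ylpm1 window holds that word at −173 and 1 GR hexamer at −60, and the Sphk2 window holds CRE cores at −49, 4 and 7. The Chst12 window holds 2 CCAAT boxes, at −207 and −160. Each position is that of the match's leftmost base as printed, with the gene start at 1 and no position 0. A match describes letters and is not evidence that a factor binds there.

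The strongest GR locus lay over an end of Kmt2a, the gene of a histone H3 methyltransferase, at chr9:44881261-44881885. Its fold enrichment was 49.4 in replicate 1 and 58.0 in replicate 2, the highest value of each list. Second was a locus inside Per1, a repressor of the circadian clock and a known glucocorticoid target, at chr11:69096577-69097806, with 42.6 and 44.8. This locus had the highest −log10 p-value of both lists, 326 and 334, against 282 and 279 at Kmt2a. The third was a locus inside Zbtb16, the gene of a zinc finger transcription factor that glucocorticoids induce in many tissues, at chr9:48723119-48724170. Its fold enrichments were 42.5 and 43.2. The first 5 places were the same in both lists.

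Zbtb16 held 3 of the 12 strongest loci. A second locus in it (chr9:48740015-48740533; 30.6 and 32.7) was of place 8, and another (chr9:48737331-48737854; 29.5 and 30.9) of place 12. All 3 lie inside the gene, at least 48430 bp from the nearest end of any protein-coding gene. A further locus inside the gene had place 1051, with 12.2 and 10.6.

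The other loci of the first 10 places lay at 6 further genes. The Gtf2a1 locus (chr12:91589639-91590742), at a gene of the general factor TFIIA, had 39.7 and 35.5. The Tbpl1 locus (chr10:22730769-22731955), at the gene of a relative of the TATA-binding protein, had 36.0 and 33.5. The Cipc locus (chr12:86946585-86947695), in the gene of a protein that inhibits CLOCK, had 33.4 and 33.1. Kmt2a, Gtf2a1, Tbpl1 and Ylpm1 were bound within 1 kb of a gene end, and Per1, Zbtb16, Cipc, Prpsap1 and Tob1 inside the gene. The Prpsap1 and Tob1 loci, inside by distance to the gene's outer ends, also overlapped a RefSeq promoter window of the same gene. The Ylpm1 locus had 32.8 and 31.6, and the Prpsap1 locus, in a gene tied to nucleotide synthesis, had 30.2 and 32.2. The Tob1 locus, in the gene of an antiproliferative protein, had 34.0 and 28.1. Its rank differed by 11 between the lists, the widest gap among these 10 loci. Place 17 was held by a locus inside Fshr, the FSH receptor gene (chr17:89189691-89190337), with 27.3 and 27.8.

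**Figure D1:**
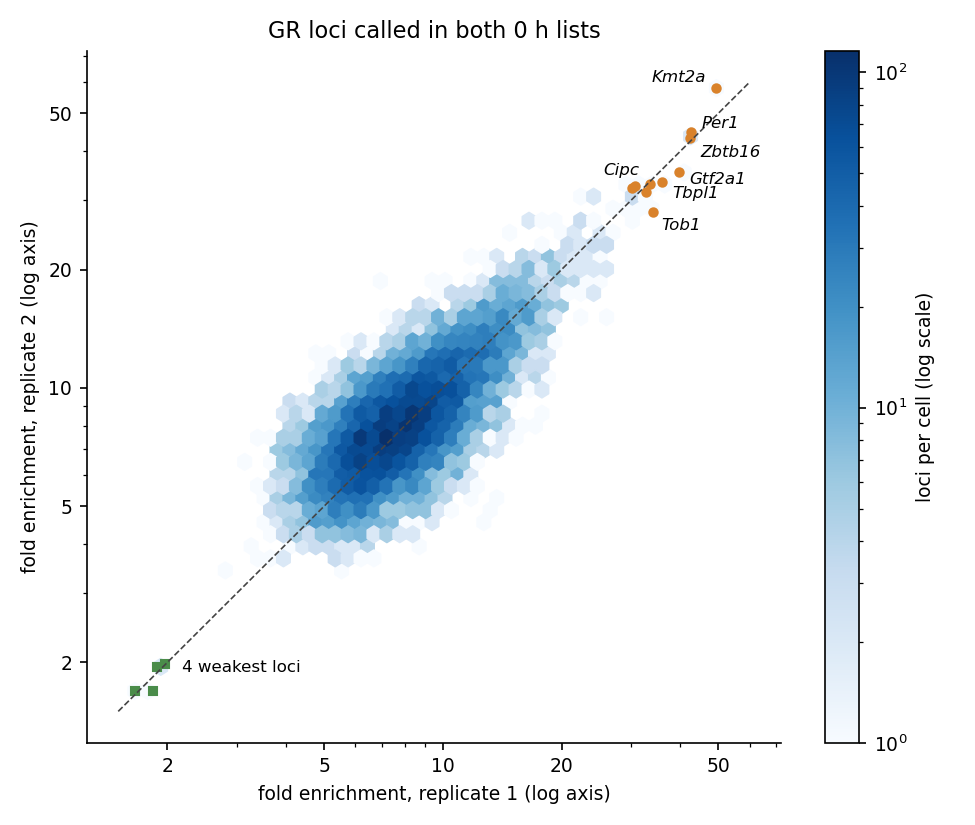
Fold enrichment of the 7733 GR loci in replicate 1 (x axis) and replicate 2 (y axis), both log axes; darker cells hold more loci. Orange points are the 10 strongest loci, from Kmt2a at 49.4 and 58.0, green squares are the 4 weakest, all under 2, and the dashed line marks equal values.

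In the middle of the order, the locus near Lrrc75a had 8.55 and 7.35, that at Tmem216 7.44 and 8.34, and that inside Stag1, a cohesin gene, 8.29 and 7.53. Loci at Zfp367 (7.07 and 8.85) and Fam117b (6.29 and 10.5) stood beside them, the last with ranks of 7023.5 and 1744. At these places the mean rank thus joined values that were farther apart than at the top.

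Of the last 5 places, 1 lay at protein-coding genes, over the histone genes H2bc7 and H2ac7 (chr13:23574109-23574531), with 2.89 and 3.51. The last 4 places, all under 2, lay together between 39843928 and 39848793 of chromosome 17, beside the pseudogene Rn18s-rs5 (39846354 to 39848202). Their fold enrichments ran from 1.65 to 1.97 in replicate 1 and from 1.69 to 1.98 in replicate 2. They were the only loci of the last 5 places outside H3K27ac, and the nearest protein-coding gene, Esp38, was 101727 bp away from the closest of them. By the authors' p-value the same 4 loci held places 5608, 5734, 7231 and 7645, so the 2 measures of strength place them apart.

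The median fold enrichment fell from 14.4 and 14.7 (replicates 1 and 2) in the strongest decile to 8.08 and 8.20 in decile 5 and 5.19 and 5.36 in the weakest. Median −log10 p-values fell from 65.8 and 59.8 to 16.1 and 15.5. Loci also became narrower, from a median of 698.5 bp to 433 bp, and strength and locus width had a correlation of 0.34 over 7733 loci. The cuts between deciles are not gaps in the data. The last locus of the strongest decile had 11.3 and 13.4 and the next 11.04 and 13.7, and at the start of the weakest decile 5.78 and 5.90 stood against 6.06 and 5.49.

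The 2 replicates ordered the loci alike at the top and less so farther down. Over the 7733 loci their ranks had a correlation of 0.68, and the median rank difference was 1314, in lists of 10115 and 9724 peaks. In the strongest decile it was 205, in decile 7 2307, and in the weakest 835.5. The deciles are cut by the mean of these same ranks, so small differences at both ends are in part built in. The sets taken by each list alone are not cut by that mean. Of the 773 strongest loci by replicate 1 and the 773 by replicate 2, 508 (65.7%) were shared, against 282 (36.5%) of the 773 weakest. Summits lay a median of 23 bp apart in the strongest decile and 67 bp apart in the weakest. The widest rank difference was at a locus inside Tmem248, with 12.7 in replicate 1 and 4.56 in replicate 2. A locus inside Extl3 had 4.71 and 12.03, and 1 at Slc12a4, a potassium-chloride cotransporter gene, had 12.7 and 4.94. These 3 fell into deciles 6 and 7, where a middle strength can thus mean a strong and a weak call.

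Joining the lists removed mainly weak peaks. Of the strongest decile of peaks of each list, 98.8% (replicate 1; 97.9 to 99.3) and 99.5% (replicate 2; 98.8 to 99.8) overlapped a peak of the other list, and of the weakest decile 58.6% (55.5 to 61.6) and 68.6% (65.6 to 71.5). Peaks in both lists had median fold enrichments of 7.84 and 8.06, and peaks in 1 list had 6.20 and 6.60. Of the 2232 peaks in replicate 1 alone 86.3% overlapped H3K27ac, of the 1791 in replicate 2 alone 84.1%, and of the joined loci 97.1% (96.7 to 97.5). Within 1 kb of a gene end lay 56.5%, 39.6% and 71.3% of these. The joined loci are spans merged from peaks of both lists, with median widths of 433 to 698.5 bp by decile. All peaks of replicates 1 and 2 had median widths of 392 and 374 bp. A wider span overlaps more readily, and that part of the difference was not tested. A peak missing from 1 list fell short of the caller's limit there, which does not show that GR was absent.

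The labelled cell type was checked by H3K27ac at marker genes. Of 10 granulosa markers 8 had an H3K27ac peak over a gene end, and the widest peak there was 12723 bp. The exceptions were Cyp19a1 (aromatase) and Nr5a2, a nuclear receptor of the ovary, both of which carried H3K27ac at GR loci inside the gene. Of 10 markers each, 2 of theca cells (Cyp17a1 and Nr2f2), 1 of oocytes (Gdf9), 4 of leukocytes (Cd68, Fcer1g, Cd79a and Spi1) and 1 of endothelial cells (Cdh5) had such a peak. A GR locus lay within 50 kb of 10, 5, 3, 6 and 6 markers, in the order granulosa, theca, oocyte, leukocyte and endothelial, and a locus of the strongest decile near 4, 1, 0, 2 and 2. Of all protein-coding genes, 56.7% had a locus so placed and 9.93% one of the strongest decile. The part of other cells in these loci was not tested.

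Nearly all loci lay in H3K27ac at every strength, and most lay near gene ends. In the strongest decile 98.4% (97.3 to 99.1) overlapped an H3K27ac peak and in the weakest 97.02% (95.6 to 98.0), with 95.99% in decile 7 as the lowest share. Within 1 kb of a gene end lay 75.5% (72.3 to 78.4) of the strongest decile and 69.1% (65.7 to 72.2) of the weakest. Inside a gene but farther from its ends lay 15.4% and 19.3%, and outside genes 9.17% and 11.6%. The gene table used gives no strand, so an end can be the start or the stop of a gene, and exons and introns are not told apart. The ends are those of the whole gene span, so a locus inside a gene can lie over an annotated start within it. With loci ordered by the authors' p-value the difference in H3K27ac overlap grew from 1.43 to 5.82 percentage points and that near gene ends from 6.37 to 17.4 points. With replicate 1 alone (no replicate 2), over all of its peaks, they were 3.66 and 11.8 points, and with replicate 2 alone 2.68 and 7.33. The overlap difference was smaller with the stronger 50% of each list (0.274 points), with loci merged across 500 bp (0.80), with 5 parts in place of 10 (0.907) and without the loci beside Rn18s-rs5 (0.909, chosen after seeing the data).

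**Figure D2:**
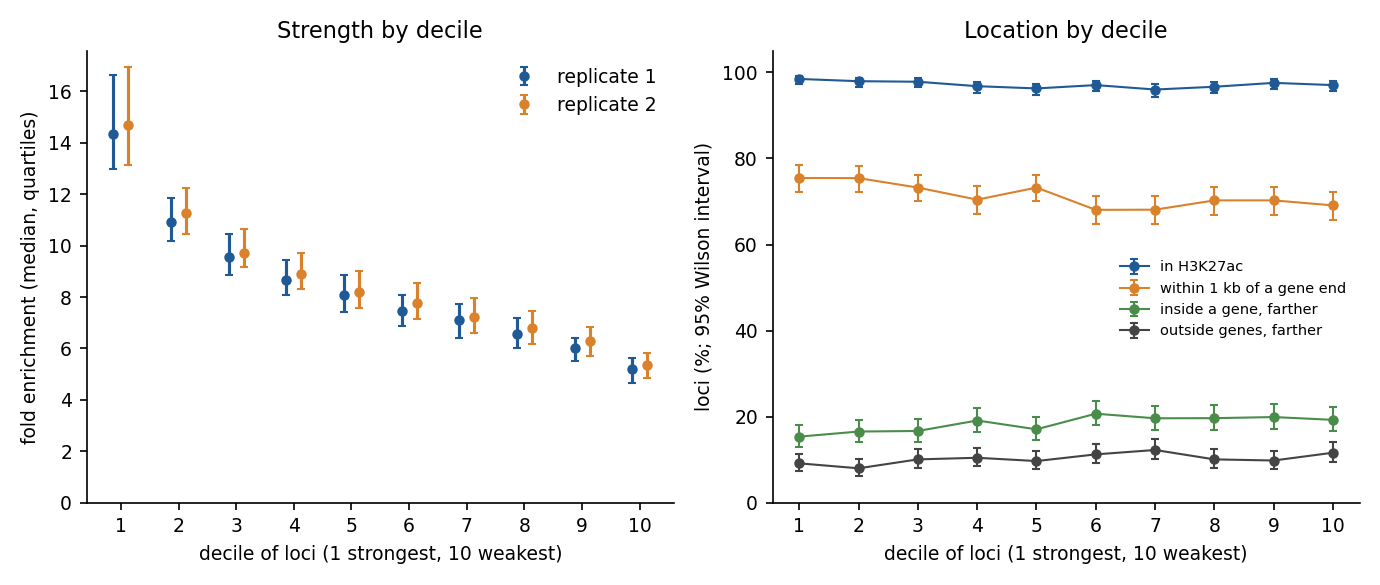
Left, median fold enrichment with quartiles in replicates 1 and 2 by decile of GR loci, from 14.4 and 14.7 to 5.19 and 5.36. Right, share of loci of each decile in H3K27ac, within 1 kb of a gene end, inside a gene but farther from its ends, and outside genes, with 95% Wilson intervals; the share in H3K27ac stayed at 95.99% or above.

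Among the loci outside H3K27ac, the strongest stood well below the top of the order. It lay 28425 bp from Polr1a, the gene of a subunit of RNA polymerase I, at chr6:72007860-72008206, with 15.1 and 16.96 (place 202). Loci over Pcbp2, an RNA-binding protein gene (17.01 and 13.9), Ier5l (15.6 and 13.7) and Vps53 (13.3 and 15.9), a gene of vesicle transport, followed at places 291, 342 and 371. A locus 4563 bp from Zwint, a kinetochore gene, had 13.9 and 14.5. Of these 5, 3 touched a gene end, although no H3K27ac peak was called there in the 1 library.

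Near gene ends, H3K27ac peaks were wider at strong GR loci than at weak ones, and farther away the widths were close. The width used is that of the widest H3K27ac peak over a locus. Its median was 1712.5 bp in the strongest decile, 1355 bp in decile 5 and 1315.5 bp in the weakest, a ratio of 1.30 from strongest to weakest. Near gene ends the medians were 1631 bp and 1188 bp. Farther away they were 1981.5 bp and 1910 bp, a ratio of 1.04, and the quartiles of the strongest decile (1293.5 to 3105.5 bp) and the weakest (1190 to 3302.75 bp) overlapped almost wholly. The correlation of strength and width was 0.11 over 7512 loci in H3K27ac, 0.18 over 5425 near gene ends and −0.02 over 2087 farther away. All 3 correlations are weak. Wider loci also lay in wider H3K27ac, with a correlation of 0.27, and that part of the relation was not tested.

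Seen from the H3K27ac side, 7803 of 37453 peaks (20.8%) held a GR locus, and these were wider than the rest. The median width was 1291 bp with a locus and 524 bp without. Near gene ends 48.3% of H3K27ac peaks held a locus, with median widths of 1229 bp with and 577 bp without, and farther away 7.38% did, with 1608 bp and 508 bp. The share with a locus was 5.11% (4.77 to 5.48) of peaks under 500 bp, 38.1% (37.1 to 39.2) of those of 1000 to under 2000 bp and 64.3% (60.4 to 68.0) of those of 4000 bp or more. A wide peak covers more sequence, and per Mb of H3K27ac there were 158 loci in peaks under 500 bp, 276 in those of 1000 to under 2000 bp and 158 in the widest class. Near gene ends the density was 525 loci per Mb in peaks under 500 bp and 224 in the widest class, and farther away it was 46.9 and 122. Near gene ends, the strongest locus of a peak was of the strongest decile in 8.32% of bound peaks under 500 bp and in 29.9% of those of 4000 bp or more. Farther away these shares were 10.3% and 11.7%. Bound peaks under 500 bp held a mean of 1 locus. In the widest class the mean was 1.66 near gene ends and 1.27 farther away. The strongest locus is thus taken from more loci in wide peaks, and that part was not tested.

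**Figure D3:**
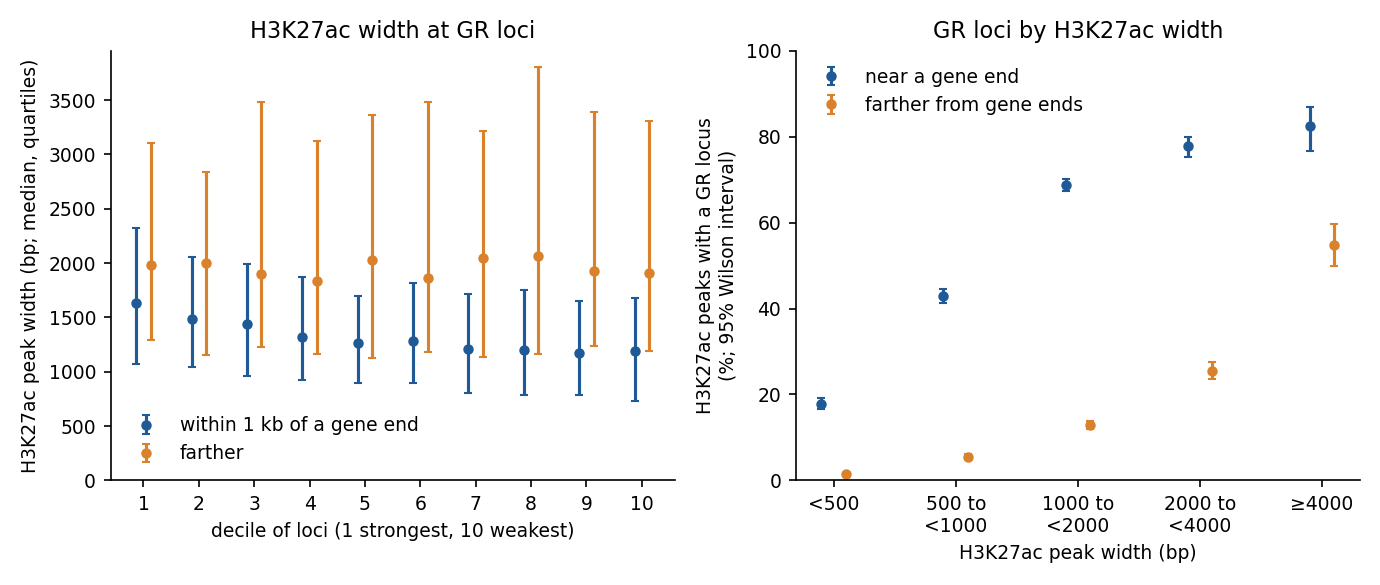
Left, median width with quartiles of the H3K27ac peak at GR loci by decile, near gene ends (1631 bp falling to 1188 bp) and farther (1981.5 and 1910 bp). Right, share of H3K27ac peaks that held a GR locus by width class with 95% Wilson intervals, near gene ends and farther; it rose with width in both.

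The H3K27ac peaks with most loci, at Greb1, Inhba and Gja1, were wide and held no locus of the strongest decile. This is not a trait of all wide peaks. Of all bound peaks of 4000 bp or more, 19.7% held a locus of the strongest decile. The widest H3K27ac peak with a locus (chr12:16729998-16762323, 32326 bp) lay in Greb1, an estrogen-induced gene of growth regulation, and held 8 GR loci. The strongest of these (chr12:16760188-16760885) had 8.27 in replicate 1 and 15.4 in replicate 2, at place 1645. A further 4 of the 8 had 9.05 and 8.88, 7.78 and 8.46, 6.01 and 8.75, and 4.70 and 8.94. A peak of 16827 bp at Inhba, the gene of the activin and inhibin beta A subunit, also held 8, the strongest with 8.08 and 11.3 (place 2163). At Gja1, the gene of the gap junction protein connexin 43, 13521 bp held 6 loci. In all, 326 H3K27ac peaks held 2 or more loci. Where a summit lay inside an H3K27ac peak, it was a median of 548 bp from the nearer edge, 635 bp in the strongest decile and 505 bp in the weakest.

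The loci were then set against genes, with a window of the gene and 50 kb to each side. Of 21631 protein-coding genes, 12266 (56.7%) had a locus in the window and 2148 (9.93%) had one of the strongest decile. Windows of neighbouring genes overlap, and a locus lay in a median of 3 of them, so a locus near a gene need not act on it. Genes with a locus had a median of 2, and their strongest locus had a median place of 2611. The 224 loci (2.90%) in no window numbered 18 of the strongest decile and 21 of the weakest.

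Greb1 had the most loci, 35, of which 1 was of the strongest decile (place 454, 12.7 and 15.0). Its neighbours Ntsr2 and Lpin1 had 19 and 17, many of them the same loci. Tmem107 had 16, and Aurkb, a mitotic kinase gene, Borcs6, Vamp2 and 3 histone genes of chromosome 13 (H2ac7, H2bc7 and H3c4) had 15 each. Tmem107, Aurkb, Borcs6 and Vamp2 lie beside Per1, and the Per1 locus of place 2 was the strongest of each. Up to 3 loci of the strongest decile lay in 1 window, among others at Kmt2a, Zbtb16, Aurkb, Borcs6, H1f2, H2bc3, H3c3, Dnajc11 and Ddit4.

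Gene lists, 14 in all with 268 distinct genes, were described by the share of members with a locus, beside 56.7% of all genes, and with a strongest-decile locus, beside 9.93%. The median place of the strongest locus per gene is set beside 2611. The lists were chosen with results of these data known, and gene density and activity, which differ between lists, were not adjusted for. The locus given for a gene is the strongest in its window. It can lie over a neighbour or outside genes, also where that is not said. No list is called particular from these counts.

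Of 26 glucocorticoid response genes 24 had a locus and 10 a strong one, with a median place of 972. After Per1 and Zbtb16 came Errfi1, an inhibitor of the EGF receptor, with a locus inside the gene (16.6 and 19.9, place 111), and Ddit4, a stress-induced inhibitor of mTOR, with a locus outside it (16.3 and 16.04, place 185) and another over the gene (16.3 and 14.5). Tgfbr3 (5.99 and 12.2) and Pdk4, a kinase that spares glucose (6.84 and 7.85), were the weakest with a locus. Cdkn1c, a cell cycle inhibitor, and Tat, a liver enzyme of tyrosine breakdown, had none. Among 18 genes of GR itself, its coregulators and corticosteroid handling, 17 had a locus and 7 a strong one, with a median place of 1266. The strongest lay near Ncoa3, a coactivator (16.01 and 19.7), inside another gene. Loci at the chaperones Hsp90ab1 (15.1 and 19.01) and Hsp90aa1 (14.2 and 18.5) came next. A locus over Spsb1 followed (14.5 and 14.6), counted for its neighbour H6pd, which feeds the enzyme that regenerates corticosterone. Ncoa1, another coactivator, was among the weakest (6.27 and 8.34), and Nr3c1, the GR gene, had no locus in both lists. Fkbp5, a GR cochaperone, had 2 strong loci, one inside the gene (14.8 and 12.7) and one outside it within the 50 kb (13.6 and 14.4). The strongest loci of the glucocorticoid response list thus ran from place 2 to place 4738, in decile 7.

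Granulosa identity and FSH response genes had a locus in 23 of 24 and a strong one in 7, with a median place of 1808. After Fshr came Nppc, the ligand that holds the oocyte in meiosis (20.3 and 18.7, place 77), Cyp19a1 (18.9 and 15.3, place 168) and Amhr2, the anti-Müllerian hormone receptor (17.01 and 13.9, place 291, a locus over its neighbour Pcbp2). The Cyp19a1 locus lay 38424 bp from an end of the gene, in H3K27ac of 2841 bp. Inhbb (6.68 and 8.90) and Lhcgr, the LH receptor gene (8.08 and 6.80), were weakest, and Wt1 had none. Of 25 genes of cholesterol and steroid synthesis 24 had a locus and 6 a strong one, yet the median place, 3400, was below that of all genes. Scarb1, the receptor that takes up lipoprotein cholesterol, had the strongest (20.9 and 18.8, place 71), followed by the regulator Insig1 (16.3 and 20.7), Soat1, which esterifies cholesterol (18.1 and 16.6), and Por, the electron donor of cytochromes P450 (12.96 and 16.1). The loci given for Scarb1 and Por did not lie over these genes themselves. Hmgcs1 (6.00 and 6.21) and Fdxr (6.01 and 5.93) were weakest and Lipe had none.

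Of 25 ovulatory genes that LH induces 14 had a locus, a share close to the 56.7% of all genes, and 8 a strong one, with a median place of 627.5. The strongest were at Zbtb16, near Sphk1 (30.2 and 32.2, a locus inside its neighbour Prpsap1) and at Cebpa (18.4 and 17.4). Next came Nr4a1, an orphan nuclear receptor, through a locus over Grasp (14.2 and 19.4). Edn2, the endothelin gene of follicle rupture (8.83 and 7.44), and Runx2 (5.83 and 8.02) were weakest. No locus lay near the other 11. These were Pgr, the progesterone receptor, Ptgs2, the prostaglandin synthase, Tnfaip6, Ptx3 and Has2 of the cumulus matrix, the EGF-like factors Areg, Ereg and Btc, Plat, Timp1 and Il6.

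AP-1 and early transcription factors had a locus in 19 of 20 and a strong one in 10, with a median place of 550. Fosb had 29.3 and 30.7 at a locus inside its neighbour Ercc1, Jund had 21.7 and 23.8, Fos 21.8 and 22.4 and Ier2 18.4 and 16.9. Egr3 (7.38 and 7.05) and Egr2 (5.07 and 5.01) were weakest and Nr4a2 had none. Of 19 clock genes 17 had a locus and 5 a strong one, with a median place of 1443. After Per1 came Dbp (29.7 and 30.7, a locus over Sphk2 and Rpl18), the repressor Nr1d1 (13.8 and 15.2) and Npas2 (13.6 and 14.1). The loci given for Nr1d1 and Npas2 did not lie over these genes themselves. Cry2 (4.61 and 7.26) and Arntl, the clock activator BMAL1 (5.11 and 6.22), were weakest, and Hlf and Bhlhe41 had none.

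In the TGF-beta, BMP and activin list 17 of 20 had a locus and 5 a strong one, with a median place of 1596. The strongest were at the receptor genes Bmpr1b (18.05 and 18.7) and Tgfbr1 (17.01 and 19.955), near Acvr1b (14.2 and 19.4, the locus also counted for Nr4a1) and at the target Id3 (14.6 and 16.3). The signal carriers Smad4 (13.3 and 5.33) and Smad2 (5.95 and 8.64) were weakest, and the receptor genes Acvr1, Acvr2b and Tgfbr2 had none. Of 20 matrix and vessel genes 15 had a locus and 3 a strong one, with a median place of 2235. Vegfa, the main vessel growth factor (14.1 and 16.6), Sparc (15.8 and 13.7), the laminin gene Lama1 (12.05 and 12.2) and the integrin gene Itgb1 (13.6 and 9.69) led. The locus given for Sparc did not lie over the gene itself. Hspg2 (5.79 and 9.92) and Itga5 (6.78 and 6.36) were weakest, and Col4a1, Nid1, Fn1, Mmp2 and Timp3 had none. Of 20 genes of inflammation 13 had a locus and 4 a strong one, with a median place of 2590, near that of all genes. The strongest were at Socs3, an inhibitor of cytokine signalling (14.5 and 14.1), near Hpgd, which inactivates prostaglandins (13.8 and 14.6), and at Nfkbia, an inhibitor of NF-kB (13.8 and 13.04), and Zfp36 (13.1 and 13.4). Il1r1 (6.46 and 6.60) and Nfkb2 (4.74 and 5.61) were weakest, and Nfkb1, Tnfaip3, Il6, Cxcl1, Ccl2, Ptgs1 and Tlr4 had none.

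Genes active in most cells ranked high. All 15 genes of ribosomal proteins and translation had a locus and 7 a strong one, with a median place of 803. Eef2 (14.8 and 16.6), Ncl (14.5 and 14.6), Rpl3 (16.8 and 12.9) and Rps6 (14.7 and 13.2) led, and Rps27a (10.3 and 10.05) and Rpl4 (6.71 and 10.3) were weakest. The locus given for Rpl3 did not lie over the gene itself. Of 15 housekeeping genes 14 had a locus and 11 a strong one, with a median place of 268, the lowest number of the 14 lists. Actb (19.4 and 21.2), Hprt (19.3 and 18.8) and Polr2a (17.8 and 17.4) were among the strongest, Tbp (7.63 and 8.73) and Gusb (5.52 and 7.18) were weakest, and Pgk1 had none. The locus given for Hprt lay outside genes. All 15 genes of mTOR and insulin signalling had a locus and 4 a strong one, with a median place of 1360. The strongest lay near Rptor (18.1 and 17.8, inside another gene), near Ddit4, at Rps6kb1 (14.5 and 16.3) and near Deptor (12.1 and 12.4, over Taf2). The locus over Deptor itself had 6.40 and 6.79 (place 5936). Tsc1 (8.41 and 8.77) and Eif4ebp1 (10.4 and 6.87) were weakest. Of 20 cell cycle genes 18 had a locus and 3 a strong one, with a median place of 3147. They were Aurkb, through the Per1 locus, Ccnd2, the cyclin that FSH induces (13.2 and 17.6), and Ccnd3 (12.7 and 15.5), followed by Cdkn1b (11.1 and 10.3). Cdk1 (6.55 and 4.77) and Ccne1 (5.22 and 5.24) were weakest, and Ccnd1 and Mki67 had none.

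**Figure D4:**
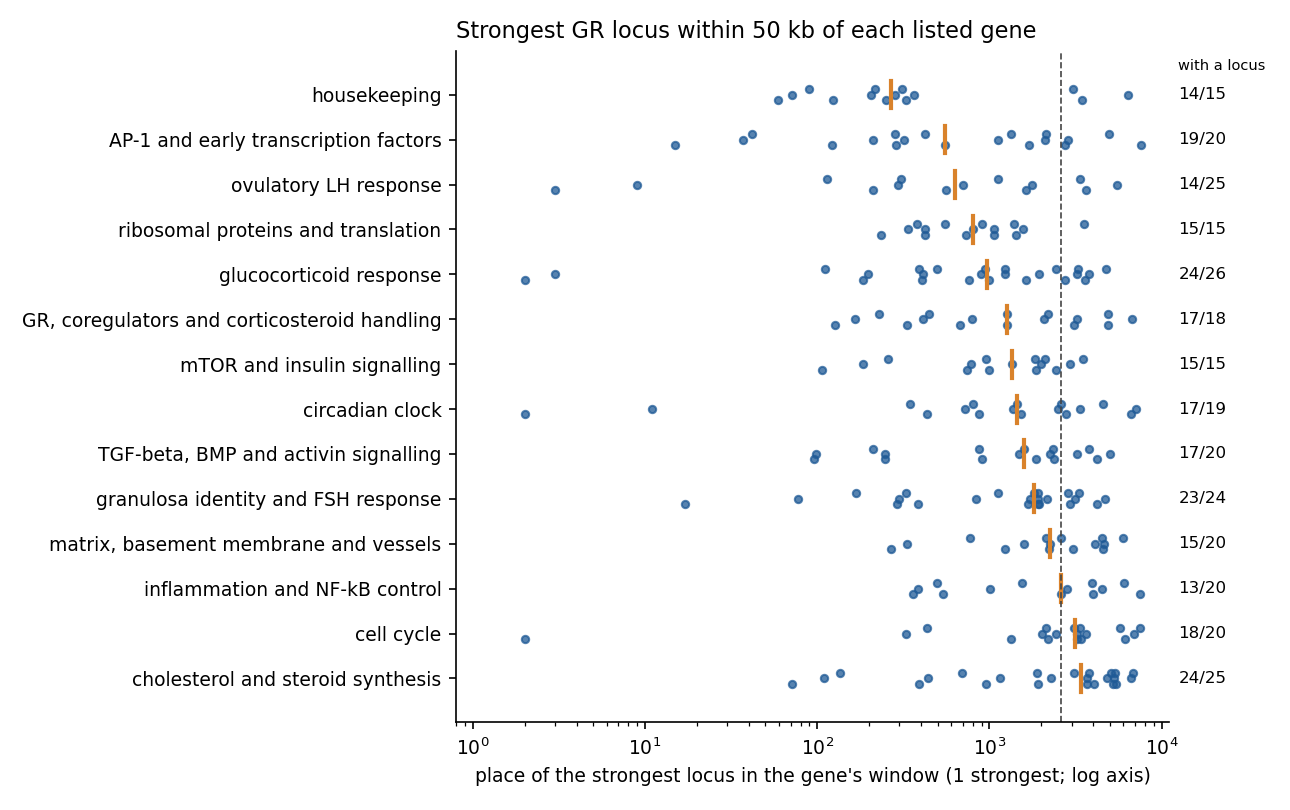
Place of the strongest GR locus within 50 kb of each listed gene (points; 1 is strongest, log axis), with the list's median (orange) and the number of members with a locus at the right. The dashed line is the median over all genes with a locus, 2611, and housekeeping genes have the lowest median place, 268.

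Promoter sequence was compared along the order at the 4884 loci (63.2%) that overlapped a RefSeq promoter window. The table covers 79.9% of the protein-coding genes, none of chromosome 18, and for each locus the window nearest its summit was used. The summits lay a median of 44 bp after the gene start, and 90.2% lay within 250 bp of it. Median GC content was 63.0% under loci and 53.0% over all 32619 windows. A second reference was the 4690 windows in H3K27ac that had no locus.

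Motifs tied to steroid receptors did not become more frequent with strength. The GR hexamer was in 8.91% of windows of the strongest decile, 15.5% of the weakest, 12.2% of those in H3K27ac without a locus and 18.998% of all windows. A pair of hexamers facing each other with 3 bases between them was found at 1 of the 4884 loci (0.0205%). It was in 0.0213% of windows in H3K27ac without a locus and 0.0092% of all windows. The exact pair is thus rare everywhere, and the search cannot show whether looser pairs were present. The NR5A site, read by the steroidogenic factors of the ovary, was in 1.55% and 2.90% of the strongest and weakest deciles and in 4.71% of all windows. The E-box was in 9.69%, 12.2% and 7.20% of these, the RUNX site in 9.50%, 11.8% and 16.6%, and the AP-1 site in 5.62%, 3.52% and 7.85%. Motifs of GC-rich promoters were frequent at all strengths, with the GC box in 74.6% and 67.5% of the strongest and weakest deciles (35.9% of all windows) and the CRE core in 42.1% and 39.1% (20.9%). The CCAAT box went the other way, with 36.8% in the strongest decile and 49.3% in the weakest (37.6%). Loci that overlap no window, such as those of place 2, 3 and 17 inside Per1, Zbtb16 and Fshr, were not read for sequence.

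The TATA box and an 8-letter word were more frequent at strong than at weak loci, and both were chosen after their values were seen. TATAAA was in 13.6% of windows of the strongest decile, 8.61% of decile 2 and 4.35% of the weaker 50% of loci, against 6.18% of windows in H3K27ac without a locus and 13.7% of all windows. In the strongest decile 25 of 58 matches on the gene's strand lay 20 to 40 bases before the gene start, the usual place of a TATA box, and in the weaker 50% 11 of 53 did. Strong loci with it included Tob1, Srsf2, a splicing factor gene, Fos, Nppc, Cebpa and the histone genes H4c1 and H1f4. Without histone genes the shares were 12.6% and 3.99%.

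Of all 8-letter words, CCATAGAG differed most between the strongest decile and the weaker 50% of loci among words in at most 1% of the latter. It was in 33 of 516 windows of the strongest decile (6.40%) and in 21 of 2323 (0.904%) of the weaker 50%, and in 0.576% of windows in H3K27ac without a locus and 1.04% of all windows. Within the strongest decile it was in 14 of the 76 windows at places 1 to 100 (18.4%) and in 19 of 440 (4.32%) beyond. Its matches lay a median of 67 bp from the GR summit in the strongest decile and 119 bp in the weaker 50%. An A came before the word in 27 of 37 matches of the strongest decile and in 3 of 21 of the weaker 50%. The word and its difference come from the same loci, so these are descriptions. Some of the strongest are printed with the word in capitals and 8 bases to each side, read along the strand that carries the word.
Ylpm1 (place 7, chr12:84996148-84996155): caagaaaaCCATAGAGtctcacag
Timm10 (place 13, chr2:84826962-84826969): accggctaCCATAGAGaaaccgac
Polq (place 14, chr16:37011715-37011722): cccgactaCCATAGAGtggtgagg
Ercc1 (place 15, chr7:19345020-19345027): ctccaggaCCATAGAGagcagcgc
Mdm4 (place 20, chr1:133025410-133025417): cgggggaaCCATAGAGcggaccct
Rpl10 (place 32, chrX:74270794-74270801): tgtaacaaCCATAGAGttacagcc

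The coordinates are those of the word. The fold enrichments were 32.8 and 31.6 at Ylpm1, 32.0 and 28.1 at Timm10, a gene of mitochondrial import, and 29.8 and 29.2 at Polq, the gene of DNA polymerase theta. They were 29.3 and 30.7 at the DNA repair gene Ercc1, 26.2 and 24.2 at Mdm4, a p53 inhibitor gene, and 24.2 and 22.7 at the ribosomal gene Rpl10. The 6 sites share the word and the A before it, while the bases farther out differ. Loci at Zfp142, Sh2b1 and Hdlbp carried the word 2 times each.

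**Figure D5:**
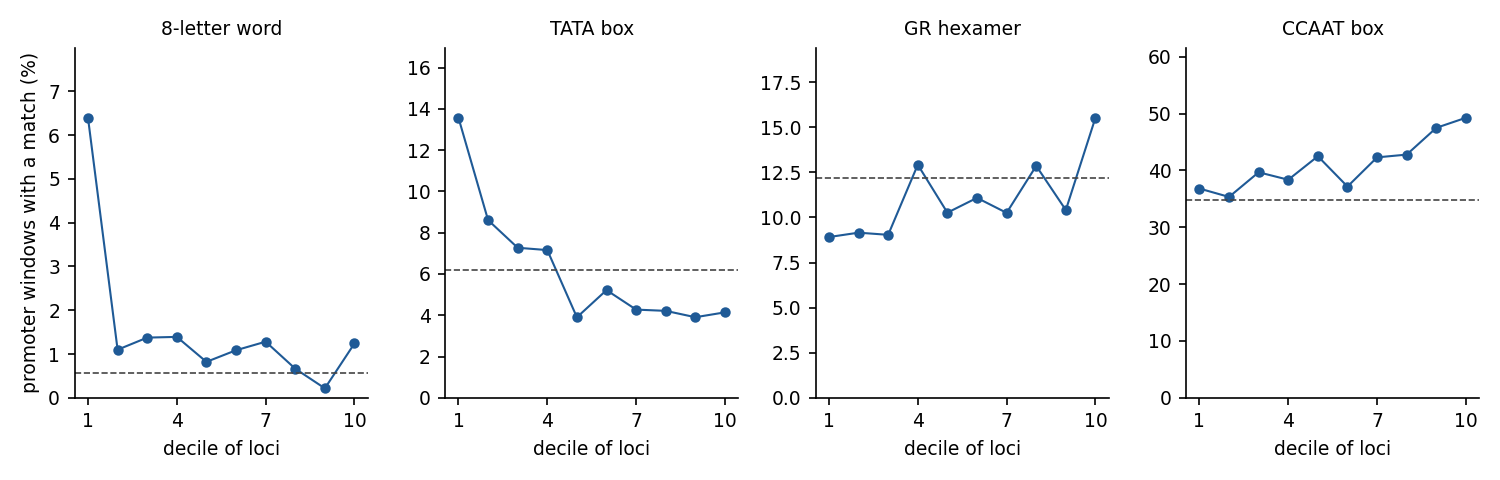
Share of promoter windows under GR loci (%) with a match to the 8-letter word, the TATA box, the GR hexamer and the CCAAT box by decile of loci (1 strongest, 10 weakest); dashed lines are windows in H3K27ac without a locus. The word fell from 6.40% in the strongest decile, the TATA box from 13.6%, and the GR hexamer and CCAAT box were highest, at 15.5% and 49.3%, in the weakest.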

How the data were processed

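Reads had been aligned to mm10 by Bowtie2 2.4.5, and MACS2 (no version given) had called the peaks, per the submitters' processing notes. The sources used here give neither the control nor the read depth behind a list. The authors deposited 1 list per library. Each GR peak has positions, a score, a fold enrichment (a ratio over the caller's background), −log10 p- and q-values and a summit. The deposited score, −log10 p-value and −log10 q-value columns were read, and strength used the deposited fold enrichment. The weakest deposited −log10 p-values were 9.02 and 9.00. The deposited H3K27ac list gives positions alone.

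The GR lists held 10119 and 9728 peaks, of which 4 each lay on other chromosomes and were left out. Loci, deciles, gene windows and sequence matches were computed with Python 3.11.15, pandas 2.3.3, numpy 2.4.6 and scipy 1.17.1, on steps tested on simulated lists. Genes are RefSeq GRCm38.p6 spans. Members, lists and words were chosen with earlier results of these data known.

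Named loci are the 10 strongest, 5 in the middle, 5 weakest, 5 strongest outside H3K27ac, 5 in the widest H3K27ac and 3 with the largest rank difference, and those of the 5 genes with most loci, with ties. Of each list, 4 members with the strongest locus, 2 with the weakest and all with none are named, except for a few members that are not reported here. Loci of Fshr, Fkbp5, Inhba and Gja1, and those that carry the words, were singled out after their values were seen. Alternatives were another order, cut, merge and window, and each list alone.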

Additional observations from a re-analysis of the deposited data

How the results depend on the processing

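Over 10 results, 75 alternatives were computed. Of these, 37 left the value within its spread (1.5 times for a count), 37 moved it farther and 1 turned its sign. The spread is the standard deviation of the 2 values obtained from each list alone. The replicate rank correlation has no such values. Its spread (0.0117) is instead a counting error over the 7733 loci, although loci are not replicates. No paired analysis was possible because the 0 h libraries form 1 group and the 6 h lists were not used. With loci ordered by the authors' p-value, the replicate rank correlation was 0.705 (0.683 by fold enrichment), the difference in H3K27ac overlap between the strongest and weakest deciles 5.82 percentage points (1.43), that near gene ends 17.4 points (6.37), the H3K27ac width ratio 1.49 (1.30) and the strength-width correlation 0.159 (0.106). With the stronger 50% of each list there were 3681 loci (7733), an overlap difference of 0.274 points, a width ratio of 1.12, a correlation of 0.0637, 8033 genes with a locus (12266) and 1156 with a strong one (2148). Each list alone gave overlap differences of 2.68 to 3.66 points, gene-end differences of 7.33 to 11.8 points, width ratios of 1.28 to 1.30 and correlations of 0.0820 to 0.0910. Counting overlap by the summit gave 6.74 points. Loci merged across 500 bp gave a width ratio of 1.32 and a correlation of 0.124, and H3K27ac merged across 1 kb gave 1.23 and 0.0882. With 1 locus per H3K27ac peak they were 1.39 and 0.158, near gene ends 1.37 and 0.178, and farther away 1.04 and −0.0169, the 1 value that turned its sign. With 5 parts in place of 10, strongest against weakest, the loci gave a width ratio of 1.24 and 3982 genes with a strong locus. A strong locus lay within 10 kb of 1089 genes, and with the nearest gene alone 6432 genes had a locus and 747 a strong one. Except where an alternative keeps fewer peaks, genes or loci by construction, the cause was not tested. The share difference of CCATAGAG was 4.14 to 4.57 points by each list alone (5.49 by both) and that of TATAAA 7.35 to 9.02 points (9.22). Depth is unknown, which limits all counts of loci, and the 1 H3K27ac library gives widths no replicate error.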
